A study of Mus musculus with 2 samples.

Results

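Open chromatin was described around 8 microRNA genes known from blood cells, Mir142, Mir150, Mir155, Mir223, Mir144, Mir451a, Mir146 and Mir21a, which are 8 of 2202 genes annotated as miRNA in GENCODE release M21 of the mouse. The genes were taken from a list of symbols that was chosen with earlier results of these data known. Each was joined to every open region lying within 20 kb of its annotated hairpin, measured from edge to edge. Mir144 and Mir451a are neighbours and share 1 window, so the 8 genes make up 7 loci, and 35 distinct regions of 80938 (0.0432%) fell within 20 kb of them. The series measured accessible DNA by ATAC-seq, an assay that marks open chromatin by where a transposase can place adapters. It held 1 group, with 2 libraries of 50000 cells each, made from megakaryocyte progenitors taken as primary cells from male C57BL/6J mice of 5 to 6 weeks, with no treatment or altered allele named in the labels. A label of both libraries also describes the cells by the code CFU-M, whose meaning is left as given. The labels number the libraries as biological replicates 1 and 2 and name separate biosamples for them, but give both the same donor label, so the spread between them may be smaller than that between animals. With 1 group no conditions can be compared, and 2 replicates allow no test of a single region.

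MicroRNAs are cut from a hairpin in a longer primary transcript by Drosha and Dgcr8, exported, trimmed by Dicer1 and loaded on an Argonaute protein. Bases 2 to 8 of the mature strand, the seed, pair with target messenger RNAs, which are then silenced. In blood, miR-142 is made in nearly all lineages, miR-223 in myeloid cells and platelets, miR-144 and miR-451a in erythroid cells, miR-150 in mature lymphocytes, and miR-155, miR-146a and miR-21a rise on activation. miR-150 is also known for favouring megakaryocyte over erythroid fate by lowering the transcription factor Myb. Accessibility around such a gene shows where proteins can reach DNA, and does not measure the microRNA itself.

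The mature strands are shown because their seeds set what a microRNA can pair with. RefSeq held 14 mature entries for the 8 genes, on the GRCm38.p6 build, and the seed is in capitals, written 5′ to 3′. miR-150-5p is not shown.
miR-142a-5p: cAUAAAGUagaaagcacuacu
miR-142a-3p: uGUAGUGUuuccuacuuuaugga
miR-223-5p: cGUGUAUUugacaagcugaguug
miR-223-3p: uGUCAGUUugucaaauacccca
miR-144-5p: gGAUAUCAucauauacuguaagu
miR-144-3p: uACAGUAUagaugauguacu
miR-451a: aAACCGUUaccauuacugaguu
miR-155-5p: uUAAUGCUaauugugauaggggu
miR-155-3p: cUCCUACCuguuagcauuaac
miR-146a-5p: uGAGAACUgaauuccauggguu
miR-146a-3p: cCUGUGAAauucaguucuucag
miR-21a-5p: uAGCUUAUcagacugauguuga
miR-21a-3p: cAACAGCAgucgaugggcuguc
miR-150-3p: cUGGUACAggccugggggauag
The 14 seeds shown were all distinct, also between the neighbours miR-144 and miR-451a. Against all 1738 mature entries of the table, the seed of miR-146a-5p was shared with miR-146b-5p and that of miR-21a-5p with miR-21c.

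Windows of 300 bases around the summit of 5 regions are shown because these regions lie nearest to the hairpin or over a start site of a transcript there. All coordinates are GRCm38.p6 and all windows are written on the strand of the microRNA gene. The summit, the point of highest signal, is base 151 of each window, or base 150 in the minus-strand window of Mir146.

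The region nearest to Mir144 and Mir451a was read at chr11:78069700-78069999, plus strand. Capitals at bases 131 to 136 mark the match to AGATAA, the only form of the GATA-factor motif searched, here on the other strand. Other forms, such as TGATAA and TGATAG, are left in lower case.
Mir144: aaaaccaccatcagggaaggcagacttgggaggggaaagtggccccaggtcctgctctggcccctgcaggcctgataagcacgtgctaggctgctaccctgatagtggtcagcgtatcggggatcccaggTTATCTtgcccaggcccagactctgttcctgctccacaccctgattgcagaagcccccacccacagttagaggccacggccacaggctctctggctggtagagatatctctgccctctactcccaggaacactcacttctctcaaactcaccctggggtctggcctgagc

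The window at the start of Mir142hg, the long noncoding RNA whose intron holds Mir142, was read at chr11:87755371-87755670, plus strand. Capitals mark the part inside the annotated Mir142hg gene, from base 207.
Mir142: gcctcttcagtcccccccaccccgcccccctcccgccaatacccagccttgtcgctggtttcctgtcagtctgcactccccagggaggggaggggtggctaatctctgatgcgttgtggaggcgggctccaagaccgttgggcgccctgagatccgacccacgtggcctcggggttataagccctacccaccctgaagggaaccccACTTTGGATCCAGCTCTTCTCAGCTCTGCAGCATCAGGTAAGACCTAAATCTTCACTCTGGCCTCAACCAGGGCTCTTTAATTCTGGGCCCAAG

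The window at the start of F630028O10Rik, the noncoding transcript that holds Mir223 in an exon, was read at chrX:96239640-96239939, plus strand. Capitals mark the matches to the ETS-family consensus AGGAAG, at bases 34 to 39, 205 to 210 and 260 to 265.
Mir223: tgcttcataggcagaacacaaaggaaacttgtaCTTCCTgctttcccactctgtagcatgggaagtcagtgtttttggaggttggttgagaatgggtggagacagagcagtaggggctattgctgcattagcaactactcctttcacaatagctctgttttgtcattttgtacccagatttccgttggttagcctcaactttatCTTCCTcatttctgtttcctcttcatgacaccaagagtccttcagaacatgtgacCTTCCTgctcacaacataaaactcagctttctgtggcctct

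The window over the Mir155 hairpin was read at chr16:84713951-84714250, plus strand, and capitals mark the hairpin, bases 190 to 254.
Mir155: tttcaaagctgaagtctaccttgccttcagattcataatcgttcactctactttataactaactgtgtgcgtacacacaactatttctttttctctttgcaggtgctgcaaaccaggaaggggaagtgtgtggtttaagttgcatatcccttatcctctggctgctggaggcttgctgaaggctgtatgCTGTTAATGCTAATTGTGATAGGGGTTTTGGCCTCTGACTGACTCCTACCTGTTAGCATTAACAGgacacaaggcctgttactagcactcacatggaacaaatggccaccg

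The window at the start of the noncoding RNA Gm12148, upstream of Mir146, was read at chr11:43385368-43385667, minus strand. Capitals mark a match to the kappaB consensus GGNNTTTCC at bases 94 to 102 and AGGAAG matches at bases 127 to 132 and 158 to 163.
Mir146: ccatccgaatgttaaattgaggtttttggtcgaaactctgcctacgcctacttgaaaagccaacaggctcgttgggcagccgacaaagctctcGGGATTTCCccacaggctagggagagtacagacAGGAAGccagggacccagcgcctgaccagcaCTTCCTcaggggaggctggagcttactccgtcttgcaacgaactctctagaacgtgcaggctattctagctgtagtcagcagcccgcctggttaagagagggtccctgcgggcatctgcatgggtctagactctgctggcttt

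Counting regions by gene, each of the 8 genes had at least 1 region within 20 kb, in the conservative list made from both libraries (8 of 8, against 65.9% of all annotated miRNA genes). Each library's own list also gave 8 of 8, against 60.9% of miRNA genes in replicate 1 and 59.7% in replicate 2. Over all miRNA genes the median was 2 regions, with a 90th percentile of 6, while the 8 genes had 4 to 7. At least 4 regions were also found at 574 of the 2202 miRNA genes (26.1%). A region lay within 5 kb of 7 of the 8 genes, the exception being Mir146, against 41.7% of all miRNA genes. The median distance to the nearest region was 2292 bp for the 8 genes and 8144.5 bp over all miRNA genes. Symbols beginning with Mir made up 1174 of the 2202 genes, and 73.8% of those had a region, so part of the background consists of predicted genes with other names.

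**Figure D1:**
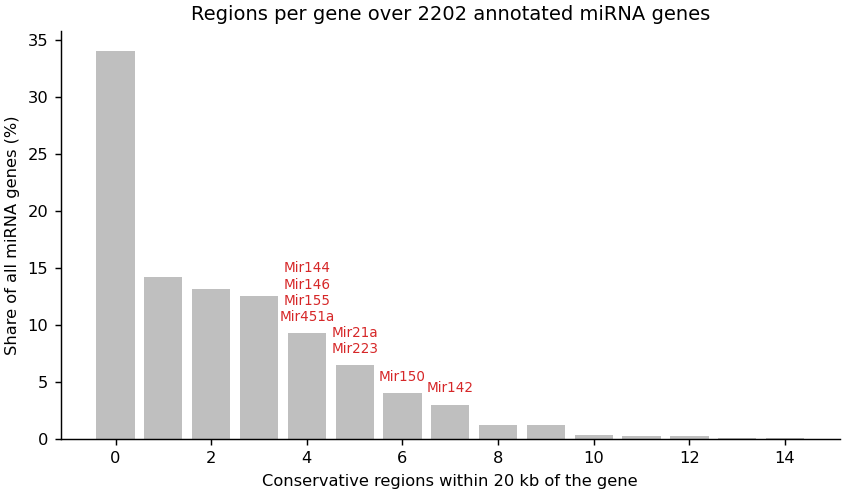
Number of conservative regions within 20 kb of each of 2202 annotated miRNA genes (x axis) against the share of genes with that number in percent (y axis, grey bars), with the 8 blood microRNA genes written in red above their own bar. The 8 genes sit between 4 and 7 regions, to the right of the median of 2.

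The signal of a region is the value that the authors' peak caller gave its strongest summit, with no unit and no scaling between libraries stated. Over the 35 regions the median was 7.84 in the conservative list, with a range of 3.37 to 19.8, against 8.90 over all 80938 regions. Thus 12 of the 35 lay above the median of all regions and 23 did not, and 4 were among the strongest 10%. Their median width was 517 bp, against 454 bp over all regions. Of the 35 regions, 28 (80.0%, Wilson 95% interval 64.1 to 90, covering counting error only) were in both libraries' own lists, against 63.9% of all regions. The interval treats the 35 regions as independent although they cluster in 7 loci, so it is not a test against that share. Replicate 1 alone listed 1 region, replicate 2 alone listed 3, and neither listed 3. Across the 28, the log2 ratio of replicate 2 over replicate 1 had a median of 0.06 and ran from -0.19 to 0.25, while over all matched regions the median was 0.08 with an SD of 0.18. None of the 28 lay more than 2 SD from the median of all matched regions, where 5.27% of all matched regions do.

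**Figure D2:**
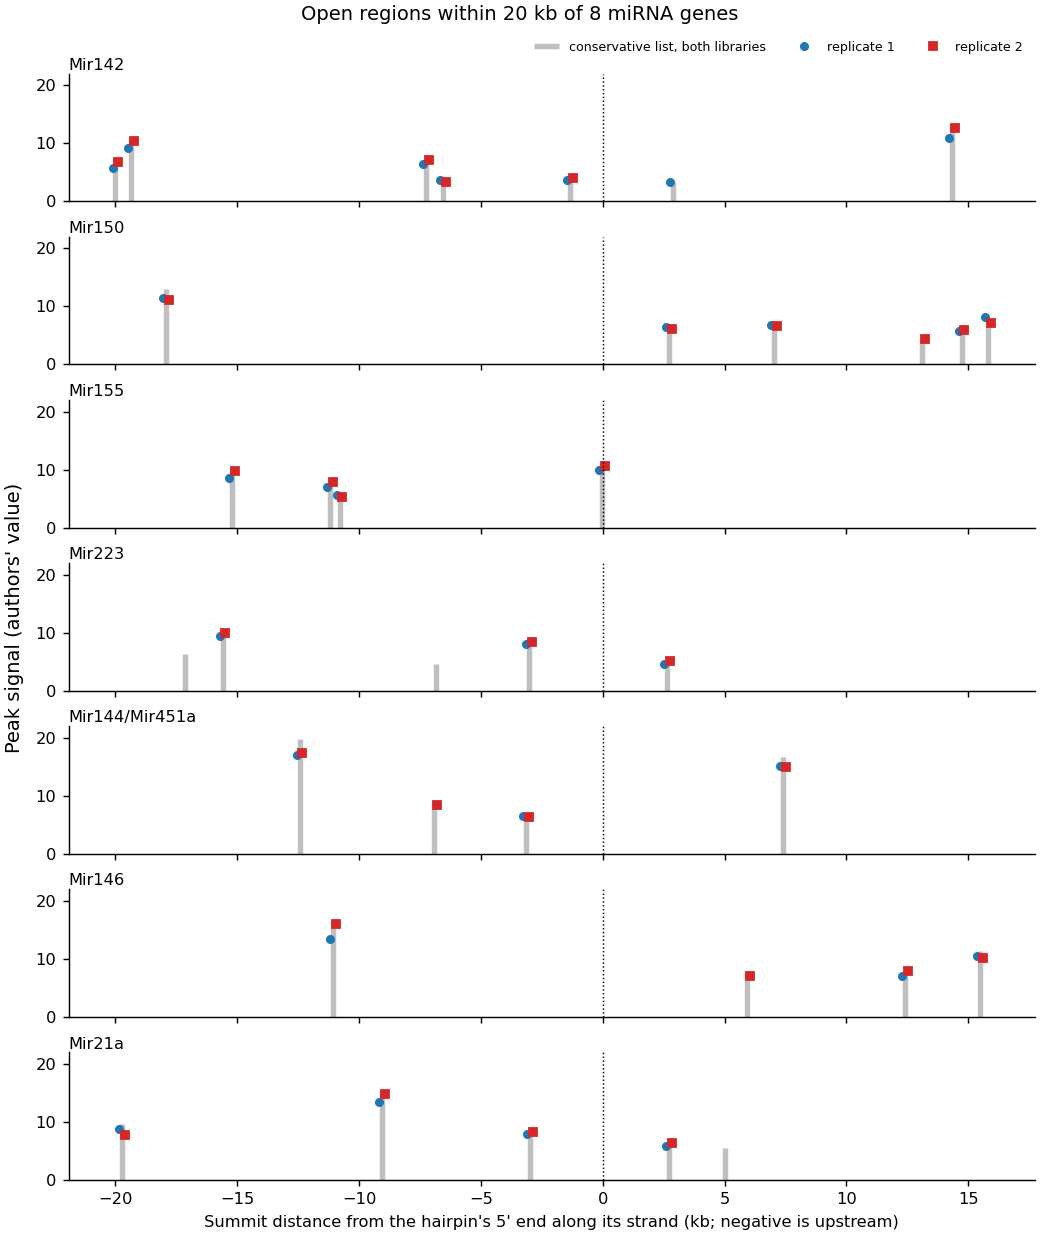
Signal of every conservative region (grey bars, authors' value) against the distance of its summit from the hairpin's first base, in kb along the strand of the gene, for the 7 loci; blue circles and red squares give the signal in the lists of replicates 1 and 2 and are shifted sideways for legibility. Regions stand on both sides at 6 loci, only upstream at Mir155, and bars without points were in neither library's list.

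Mir142, 64 bp at chr11:87756864-87756927 on the plus strand (ENSMUSG00000105196.1), lies in an intron of Mir142hg and had 7 regions, 8 in the list of replicate 1 and 6 in that of replicate 2. The nearest, chr11:87755313-87755843, covered the start of Mir142hg, 1021 bp from the hairpin. Its signal was 3.72 in replicate 1 and 3.98 in replicate 2 (mean 3.85 ± 0.188, SD, n = 2), and the conservative value of 4.0 was above only 2.8% of all regions. The host start was thus listed in both libraries, as a low region, and its window held none of the 9 motifs. The strongest region, chr11:87770957-87771343, lay 14329 bp downstream in an intron of the coding gene Tspoap1, with signals of 10.9 and 12.6 in replicates 1 and 2 (11.7 ± 1.19, SD, n = 2). It was higher in replicate 2 (log2 ratio 0.21), and its window held 2 ETS matches, 1 RUNX match and 1 E-box match. A region at the start of Supt4a, a transcription elongation factor gene, reached 9.15 and 10.4 (9.77 ± 0.868, SD, n = 2) at the far edge of the window. The widest region of all loci, 1626 bp at chr11:87758276-87759901 with 5 summits, lay 1349 bp past the hairpin. It had 3.39 in replicate 1 and was absent from the list of replicate 2.

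Mir223, 110 bp at chrX:96242817-96242926 on the plus strand (ENSMUSG00000076066.1), had 5 regions, of which each library's list held 3. The start of its host transcript F630028O10Rik was covered by chrX:96239587-96240218, with signals of 8.06 and 8.31 (8.19 ± 0.177, SD, n = 2) in replicates 1 and 2. This is the window with 3 ETS matches printed above, and 47.2% of all windows held at least 1. The ETS family includes the myeloid factor PU.1, encoded by Spi1, among others, and binding by any of them was not tested. The GATA match of this window, at bases 201 to 206, shares letters with an ETS match. The strongest region, chrX:96226964-96227458, lay between genes at -15603 bp from the hairpin's first base with 9.45 and 9.97 (9.71 ± 0.361, SD, n = 2). It held single matches to the GATA, ETS, RUNX and AP-1 consensus. The region nearest to the hairpin, chrX:96244181-96245720, was 1255 bp downstream and lower, at 4.65 and 5.06 (4.85 ± 0.290, SD, n = 2). Both remaining regions, with conservative signals of 6.26 and 4.52, were in neither library's own thresholded list.

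Mir144, 66 bp at chr11:78073005-78073070 (ENSMUSG00000065401.1), and Mir451a, 72 bp at chr11:78073170-78073241 (ENSMUSG00000070065.1), lie on the plus strand and shared 4 regions. No annotated gene of a type other than miRNA contained either hairpin. A further annotated miRNA gene, Mir451b, had the same distance to its nearest region as Mir451a. miR-451a is known for being matured by Ago2 without Dicer. Their strongest region, chr11:78060235-78060725, had 16.9 in replicate 1 and 17.4 in replicate 2 (17.1 ± 0.299, SD, n = 2). Its conservative signal of 19.8 exceeded 98.9% of all regions and was the highest of the 35. It lay at -12442 bp from Mir144 (negative values are upstream), with its summit just beyond the end of Flot2. The next strongest, chr11:78080076-78081091 at 15.1 and 14.9 (15.05 ± 0.142, SD, n = 2), covered the start of the downstream coding gene Eral1. Nearer to the hairpins, chr11:78069663-78070358 had 6.53 and 6.25 (6.39 ± 0.199, SD, n = 2), 2647 bp from Mir144 and 2812 bp from Mir451a. This is the window printed above with 1 AGATAA match and a CEBP match (TTGCNNAA) at bases 175 to 182. The fourth region, at -6908 bp, was listed by replicate 2 alone, at 8.36. The values of the replicates lay close together in the 3 regions that both listed, and those regions kept the same order in each library.

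Mir155, 65 bp at chr16:84714140-84714204 on the plus strand (ENSMUSG00000065397.1), was the only one of the 8 with a region over the hairpin (1 of 8, against 7.04% of all miRNA genes). The hairpin lies in an exon of the noncoding gene Mir155hg. The region, chr16:84713952-84714370, had 9.83 in replicate 1 and 10.6 in replicate 2 (10.2 ± 0.578, SD, n = 2) and was the strongest of 4 at the locus. Its summit lay 39 bp before the hairpin, and its window held 1 match each to the ETS, RUNX, E-box (CAGNTG) and CEBP consensus. A pair of regions stood on either side of the start of Mir155hg without covering it. The one before the start, chr16:84702708-84703109, had 6.93 and 7.90 (7.42 ± 0.687, SD, n = 2), with 67.3% GC and a kappaB match. The one after it, chr16:84703187-84703599, had 5.54 and 5.34 (5.44 ± 0.144, SD, n = 2) and the highest GC content of all locus windows, 71.0%. The hairpin region was therefore higher than both regions by the host start, in each library. The fourth, chr16:84698713-84699138, had 8.55 and 9.70 (9.12 ± 0.813, SD, n = 2) at -15205 bp. It held matches to 6 of the 9 motifs, the most of any locus window. Replicate 1 listed a further region at -821 bp, with 6.61, that the conservative list did not hold.

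Mir146, 65 bp at chr11:43374397-43374461 on the minus strand (ENSMUSG00000065601.1), encodes miR-146a, which targets the signalling proteins Irak1 and Traf6 and is known to be induced through NF-kappaB. It had 4 regions and the largest distance to the nearest one, 5565 bp. The strongest, chr11:43385034-43385698, lay at -11057 bp, over the start of Gm12148, which is annotated on the opposite strand. Its signal was 13.4 in replicate 1 and 15.9 in replicate 2 (14.6 ± 1.79, SD, n = 2), and the log2 ratio of 0.25 was the highest of the 28 matched regions. The conservative value of 15.6 exceeded 92.4% of all regions. The window printed above held a kappaB match, one of 3 among the 35 windows (8.57%, against 5.33% of all windows). The other 3 regions lay 5921 to 15498 bp downstream. Of these, chr11:43358561-43359287 had 10.5 and 10.05 (10.3 ± 0.323, SD, n = 2), whereas the nearest to the hairpin was listed by replicate 2 alone, at 7.03.

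Mir21a, 92 bp at chr11:86584067-86584158 on the minus strand (ENSMUSG00000065455.1), lies in the last exon of the coding gene Vmp1, which encodes an autophagy protein, in its 3′ untranslated part. It had 5 regions in each list. The nearest, chr11:86586309-86587708, covered start sites of short processed Vmp1 transcripts 2151 bp from the hairpin, with 7.90 and 8.15 (8.02 ± 0.175, SD, n = 2). Its summit window held an AP-1 match (TGANTCA), a motif of the factor family known to bind at the Mir21a promoter. The strongest, chr11:86593005-86593525, lay at -9047 bp in an intron of Vmp1, had 13.4 and 14.7 (14.1 ± 0.901, SD, n = 2), and held 2 AP-1 matches. Both regions were thus upstream, inside Vmp1 and listed by both libraries. The upstream region at -19738 bp had 8.70 and 7.64 (8.17 ± 0.744, SD, n = 2) and was the matched region with the lowest log2 ratio, -0.19. Of the regions listed by 1 library only, replicate 1 had one with 4.84 and replicate 2 one with 8.26, neither of them in the conservative list.

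Mir150, 65 bp at chr7:45121757-45121821 on the plus strand (ENSMUSG00000065495.1), had no host gene and 6 regions, 5 of them downstream. The region chr7:45128588-45129617 covered the start of Rpl13a, a ribosomal protein gene, with 6.84 and 6.69 in replicates 1 and 2. A region at the start of Flt3l, the ligand of the progenitor receptor Flt3, had 5.75 and 5.86. The strongest, chr7:45103592-45104181, covered the start of Fcgrt, the neonatal Fc receptor gene, with 11.5 and 11.2 (11.3 ± 0.243, SD, n = 2). A region at 15800 bp downstream, 1125 bp from a Flt3l start, had 8.10 and 7.18 (7.64 ± 0.649, SD, n = 2) and held GATA, RUNX and CEBP matches. Of these 4 regions, only the latter covered no annotated start of another gene. The less stringent lists of both libraries together held a faint region over the hairpin, chr7:45121476-45121779, at 2.55. It was in the less stringent list of replicate 2, at 2.34, and in none of replicate 1.

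**Figure D3:**
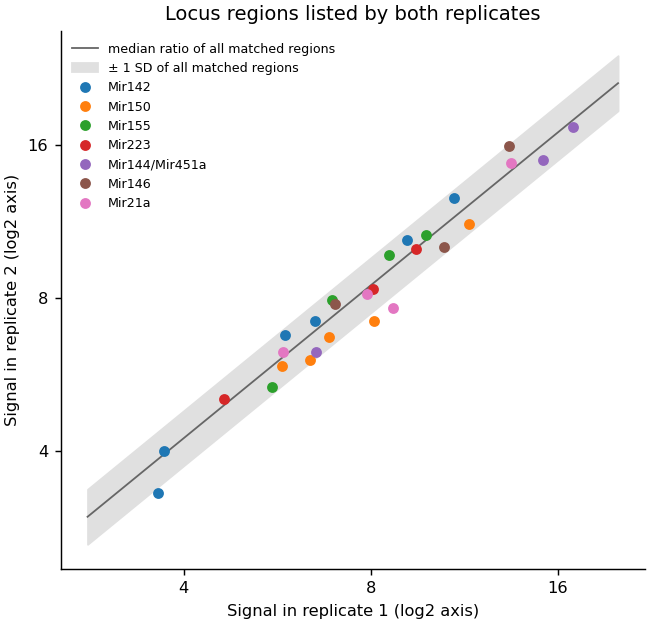
Signal in the list of replicate 2 (y axis) against that of replicate 1 (x axis), both on log2 axes, for the 28 locus regions that both lists held, coloured by locus; the line is the median ratio of all matched regions and the grey band 1 SD of their log2 ratios on each side. Of the 28 points 3 lie outside the band.

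Position differed between loci. Of the 35 regions 21 had their summit upstream of the hairpin and 14 downstream, 12 covered the start of an annotated transcript of any kind, and 6 that of a protein-coding transcript. Region counts of the 7 loci in the replicates' own lists differed by at most 2. At Mir142 they gave a mean of 7.0 ± 1.41 (SD, n = 2), at Mir144 and Mir451a 4.0 ± 1.41, and at Mir223 and Mir21a no difference. The 7 conservative regions missing from one list or both were in the less stringent pseudoreplicated lists of both libraries, in which all 35 were found.

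Motif matches were counted in 300 bases around each summit, on both strands, and a match describes letters only. AGGAAG (ETS) was in 18 of 35 windows (51.4%, against 47.2% of all 80938 windows) and AGATAA (for GATA factors) in 8 (22.9%, against 19.1%). TGTGGT (RUNX) was in 10 (28.6%, against 28.8%), TTGCNNAA (CEBP) in 7 (20%, against 15.9%) and TGANTCA (AP-1 and NFE2) in 6 (17.1%, against 11%). CAGNTG (E-box) was in 16 (45.7%, against 57.2%) and AACTGA (MYB) in 3 (8.57%, against 19.3%). TTCNNNGAA (STAT) was in 3 (8.57%, against 8.13%). Some of these motifs can share letters, such as GATA with ETS, or ETS with STAT or kappaB, so their counts are not independent. With 35 windows from 7 loci these shares are descriptive.

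The genes that make and use microRNAs mostly had a region at their promoters, counted where a region came within 1 kb of a coding transcript's start. Of 26 such genes 24 had one (92.3%, against 61.0% of all protein-coding genes), and 22 had one in each replicate's list. Among the processing enzymes, Drosha had a signal of 13.7 and 15.8 in replicates 1 and 2, and Dicer1 had 13.3 and 13.9. Dgcr8, the RNA-binding partner of Drosha, had 13.0 and 13.3. Ago3, an Argonaute, had 13.6 and 15.5, and Ago2, the Argonaute that slices RNA, had 8.58 and 10.1. The genes without a promoter region were Lin28b and Trim71, an RNA-binding protein gene that blocks let-7 processing and a ubiquitin ligase gene. The conservative promoter regions of Ago4 and Lin28a were in neither replicate's list. Of 18 genes for transcription factors or cofactors reported to act at these 8 loci, 18 had a promoter region, again against 61.0%. Each replicate's list held promoter regions of 17 of them. The strongest were those of Nfia (10.9 in the conservative list), Spi1 (10.4) and Rela (10.2). Gata1 was lower at 5.89. The median over the 18 was 7.31, and all 18 lay below 11.2, the median over all coding genes with a promoter region. The median over the 24 genes that make and use microRNAs was 10.9.

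**Figure D4:**
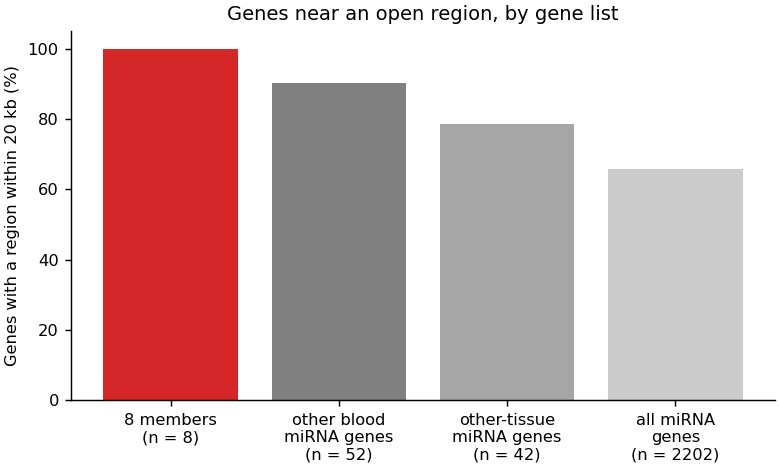
Share of genes with a conservative region within 20 kb, in percent (bars from 0), for the 8 blood microRNA genes, 52 other blood microRNA genes, 42 microRNA genes of other tissues and all 2202 annotated miRNA genes. The shares are 8 of 8, 90.4%, 78.6% and 65.9%.

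Other microRNA genes known from blood also had regions nearby, 47 of 52 (90.4%, with 46 in replicate 1 and 47 in replicate 2) and 27 of 30 loci after joining neighbours, against 71.0% of all 1769 miRNA loci. The highest of their strongest regions were at Mir10b (17.5), Mir210 (16.9) and Mir181a-2 with Mir181b-2 (16.7). None was within 20 kb of Mir181a-1, Mir181b-1 or Mir125b-1. Of 42 genes known from muscle, brain, epithelium, embryonic stem cells and other tissues 33 had a region (78.6%, with 31 in replicate 1 and 26 in replicate 2), and 21 of 26 loci. Mir499 had the highest, at 17.9, and Mir133b, Mir206 and Mir208b had none. The window does not tell regions of the microRNA from those of neighbouring genes.

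Markers of cell types were read at promoters in the same lists, against 61.0% of all coding genes. Megakaryocyte markers had a region at 7 of 10 (5 in the list of replicate 1 and 6 in that of replicate 2), including Gp1ba (13.9) and Pf4 (5.96), and none at Vwf or Gp6, among others. Erythroid markers had one at 5 of 7 (4 in each replicate's list), and granulocyte and monocyte markers at 5 of 7 (5 in each), including Elane (5.22) and Lyz2 (8.42). Mast cell markers had 0 of 3 in the conservative list and in replicate 1, while replicate 2 listed a region at Cpa3 (6.44). B cell markers had 1 of 3 (Pax5) and T cell markers 1 of 3 (Cd3d), both in each replicate's list. The part of other cells in the regions at these microRNA loci was not tested.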

How the data were processed

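The files held ATAC-seq peaks of 2 libraries of 1 group, placed on mm10 per the labels. Each list gave 1 record for each summit, and its signal is a value that the authors deposited. The p columns hold −log10 values that the authors deposited, and they were used here only to check the lists. The authors thresholded lists on reproducibility (IDR, irreproducible discovery rate) or with pseudoreplicates, per library or for both libraries together, per the deposited file descriptions. The conservative list of both libraries was the main one. It held 80938 regions, and the lists of replicates 1 and 2 held 61735 and 60098. What aligner and peak caller were used, and whether duplicates were removed or reads shifted for the transposase, is not given in the sources used here, and could move summits and region counts. Depth per library is unknown, and signal tracks and the ranked lists of peak pairs were not used here.

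Summits sharing an interval were merged, a region took the signal of its strongest summit, with coordinates counted from 1. Genes came from GENCODE M21 on GRCm38.p6 (mm10), and no region ran past a chromosome end (0 of 80938). A library listed a conservative region where at least 50% of either region was covered, and its strongest matching region gave the signal. Motifs were searched 150 bases to each side of the summit. Mature microRNAs came from RefSeq, where all 8 genes were matched by symbol. Current names were used for 4 listed genes (Tut4, Tut7, Mir124a-2 and Mir292). Named at each locus were the strongest region, the nearest, and any at a host or neighbouring start, and from each microRNA or factor list the 3 genes with the highest signal and up to 3 without a region. Some regions and genes that this rule names are not reported here. Further genes of the processing and marker lists were named after their values were seen. The members and lists were chosen with earlier results of these data known. The counting steps were tested on simulated data and returned what was planted. Alternatives were other windows, lists, overlap rules, a distance to the summit and each library alone. Python 3.11.15, numpy 2.4.6, pandas 2.3.3, scipy 1.17.1 and matplotlib 3.10.9 were used.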

Additional observations from a re-analysis of the deposited data

How the results depend on the processing

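Each of the 8 genes kept a region under every alternative to the 20 kb window and the conservative list except the 5 kb window, where 7 did. Window and threshold set the number of regions, 35 in the main count: 10 at 5 kb, 18 at 10 kb, 77 at 50 kb and 12 among the stronger 50% of all regions. With either library's list alone it was 32 to 33. The median signal of 7.84 was 6.32 at 5 kb, 6.86 at 10 kb, 6.77 in the replicated list, 6.45 in the pseudoreplicated list and 11.98 among the stronger 50%, and 6.96 to 7.79 with either library alone. Hairpins with a region rose from 1 to 2 in the replicated list and to 2 in the pseudoreplicated list, through Mir150. The share in both libraries' lists went from 80.0% to 100% with the pseudoreplicated list of each library. The lists admit more or fewer regions by construction. The 7 regions missing from a library's thresholded list were in the pseudoreplicated lists of both libraries. Depth is unknown, and 2 libraries give the spread of only 1 pair. No paired analysis was possible because the series has 1 group and no result comes from a test.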

Other observations

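GC content of the 35 windows ran from 36.3% at the far upstream Mir21a region to 71.0% beside the Mir155hg start, with a median of 52.3%, and 3 windows held no CpG. Among other blood microRNA genes, the neighbours Mir132 and Mir212 had 11 and 12 regions within 20 kb, and Mir146b, whose 5p strand shares its seed with miR-146a-5p, had 8. Mir126a, a microRNA gene of endothelial and stem cells inside Egfl7, had 6 regions, of which replicate 1 listed 5 and replicate 2 listed 3. Mir23a, Mir27a and Mir24-2, a cluster of 1 transcript, had 9.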
